A study of Mus musculus with 2 samples.

Results

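The Clec4 receptors are C-type lectins, membrane proteins with which myeloid cells bind sugars and glycolipids of fungi, mycobacteria and dying cells, and their levels are given here across the myeloid cells of neonatal mouse skin. The genes were chosen by name: Clec4a1, Clec4a2, Clec4a3, Clec4b1, Clec4d, Clec4e, Clec4n and Clec7a, 8 in all. Of these, 7 were measured among the 32285 genes of the count tables, and Clec7a (Dectin-1) was not analysed here. Levels were read in cells gated by marker genes that include none of the 7.

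The cells were live CD45+ skin leukocytes of wild-type C57BL/6 mice at postnatal day 15, whose transcript 3′ ends were sequenced cell by cell in droplets. One pool of mice received anti-Gr-1, which recognises Ly6G on neutrophils and Ly6C on monocytes, and the other an isotype control antibody, with injections on alternate days over days 4 to 14 of life. Each pool held cells of 4 to 7 mice and gave 1 library. There are thus no replicates, no difference between the libraries was tested, and every interval below is a 95% interval that covers counting error only, not the spread between mice. There were 9110 barcodes and 85142470 unique molecular identifiers (UMIs, each standing for 1 captured RNA molecule) in the anti-Gr-1 library, and 21311 barcodes and 125253392 UMIs in the isotype control library. After filtering, 7579 anti-Gr-1 cells with a median of 7908 UMIs and 16487 isotype control cells with a median of 5081 UMIs were kept. The libraries shared 61 cell barcodes.

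Members of this family divide by how they signal. Clec4a2 encodes DCIR, which carries an inhibitory motif in its cytoplasmic tail that recruits the phosphatases encoded by Ptpn6 and Ptpn11, while Clec4a1 and Clec4a3 encode the related DCIR4 and DCIR3, which lack that motif in the mouse. Clec4b1 (DCAR), Clec4d (MCL), Clec4e (Mincle) and Clec4n (Dectin-2) have short tails and signal through the adaptor chain Fcer1g to the kinase Syk and on to Card9, Bcl10 and Malt1, which turn on NF-kB and cytokine genes. MCL and Mincle bind the mycobacterial cord factor and pair with each other at the cell surface, DCAR binds mycobacterial inositol mannosides, and Dectin-2 binds fungal mannans.

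In build mm10 the 7 genes lie in 1 stretch of chromosome 6, between positions 122921848 and 123289870, which spans 368 kb. That stretch holds 9 protein-coding genes, and those outside the list are Clec4a4 and Clec4b2. In the order of the chromosome they are Clec4a1 (ENSMUSG00000049037, 122921848 to 122934619), Clec4a3 (ENSMUSG00000043832, 122952515 to 122969875), Clec4b1 (ENSMUSG00000030147, 123049962 to 123071555), Clec4a2 (ENSMUSG00000030148, 123106428 to 123143999), Clec4n (ENSMUSG00000023349, 123229843 to 123247021), Clec4d (ENSMUSG00000030144, 123262111 to 123275265) and Clec4e (ENSMUSG00000030142, 123281789 to 123289870). All lie on the plus strand except Clec4e, so Clec4d and Clec4e stand next to each other with their 3′ ends facing. The genes are close relatives, and reads that match more than 1 gene may be lost or misplaced. Of the 60-base windows in the last 600 bases of their transcripts, 6.73% were shared with another gene for Clec4a2, 5.36% for Clec4b1, all of these with Clec4a2, and 0.0999% for Clec4n. No window was shared for Clec4a1, Clec4a3, Clec4d or Clec4e, so counts of Clec4a2 and Clec4b1 are the less certain ones.

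Clec4b1, Clec4d and Clec4e share a signalling chain, but Clec4b1 was highest in other cells than Clec4d and Clec4e, as the levels further on show. The promoters of these 3 genes are therefore shown. Each is the 250 bases before the transcript start listed by RefSeq for build GRCm38.p6, written 5′ to 3′ along the gene's strand, at chr6:123049712-123049961 for Clec4b1, chr6:123261857-123262106 for Clec4d and chr6:123289872-123290121 on the minus strand for Clec4e. Capitals mark GAGGAA and its reverse complement TTCCTC, the core that the myeloid factor PU.1 favours.
Clec4b1: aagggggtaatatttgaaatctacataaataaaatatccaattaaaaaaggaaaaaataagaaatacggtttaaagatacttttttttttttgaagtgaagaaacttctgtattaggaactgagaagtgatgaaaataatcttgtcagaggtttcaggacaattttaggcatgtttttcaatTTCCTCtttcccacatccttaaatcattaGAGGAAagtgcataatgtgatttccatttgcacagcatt
Clec4d: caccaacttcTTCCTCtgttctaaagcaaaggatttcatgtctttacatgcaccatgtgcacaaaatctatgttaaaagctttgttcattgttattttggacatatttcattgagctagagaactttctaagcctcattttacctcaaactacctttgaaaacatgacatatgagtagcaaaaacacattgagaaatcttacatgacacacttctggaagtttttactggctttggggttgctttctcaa
Clec4e: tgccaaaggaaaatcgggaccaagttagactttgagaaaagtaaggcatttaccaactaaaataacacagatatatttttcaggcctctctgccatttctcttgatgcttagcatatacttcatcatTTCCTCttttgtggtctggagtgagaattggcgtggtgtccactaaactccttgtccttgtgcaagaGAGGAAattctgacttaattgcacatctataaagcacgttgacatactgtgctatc
These letters stood 68 and 39 bases before the start in Clec4b1, 240 bases before it in Clec4d, and 123 and 56 bases before it in Clec4e. The RefSeq table held a promoter for 6 of the 7 genes, all but Clec4n. GAGGAA, searched on both strands, was found in 4 of these 6, with 2 sites in Clec4a1 and none in Clec4a2 or Clec4a3. The Clec4a2 window, chr6:123122440-123122689, precedes a RefSeq start inside the gene span given above, so the stretch before position 123106428 was not searched. Among all 27025 promoters of the same length, 23.1% held it at least once and 3.57% at least 2 times. TTGCNNAA, the C/EBP core with N for any base, was found in 1 of the 6, Clec4e, and in 9.55% of all promoters. An NF-kB core, GGG and CC with 5 bases between them, was found in 1 of the 6, Clec4a1, and in 45.4% of all promoters. A match describes these letters and not a bound site.

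Cells were assigned to a type by the mean level of its marker genes, so each type is a range of a score and is called "-like". The gate took 8 anti-Gr-1 and 132 isotype control neutrophil-like cells, 13 and 189 classical monocyte-like cells, and 26 and 125 non-classical monocyte-like cells. It further took 252 and 718 macrophage-like cells, 808 and 1712 type 2 dendritic cell-like cells, 525 and 519 type 1 dendritic cell-like cells, 85 and 194 migratory dendritic cell-like cells, 71 and 216 Langerhans cell-like cells, 378 and 826 mast cell-like cells and 31 and 33 basophil-like cells. A group of 328 and 977 phagocytes is called by its genes Retnla, Lpl and Fn1. Lymphoid-like cells numbered 3779 and 6346, and 15.8% of anti-Gr-1 and 25.7% of isotype control cells passed no gate. The share of a type's cells that lay within 0.05 of the score or margin that admitted them was between 1.14% (anti-Gr-1 type 1 dendritic-like) and 22.6% (isotype control type 2 dendritic-like) over the dendritic types. It was 0% and 14.4% for neutrophil-like and 15.4% and 20.1% for classical monocyte-like cells. Ly6g, the defining neutrophil gene, was hardly captured in either library, at 0.495 and 0.262 counts per 1000000 (CPM) over all kept cells. RNA of male and female cells occurred in 1 barcode more often in the isotype control library in every type with at least 50 cells in both libraries, for example in 1.59% of anti-Gr-1 and 8.08% of isotype control macrophage-like cells. Among smaller types it went the other way in some, such as the non-classical monocyte-like cells (11.5% and 5.6%). Sex was read per cell from Xist and 4 Y-linked genes, and the libraries differed in it. Lymphoid-like cells were 737 female and 2172 male in the anti-Gr-1 library, and 2378 and 2255 in the isotype control library. For macrophage-like cells these numbers were 50 and 137, and 221 and 243. Sex make-up thus differed along with treatment in every ratio below, except where cells of 1 sex are named.

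The inhibitory receptor gene Clec4a2 was highest in Retnla Lpl Fn1 phagocytes. It stood there at 433 CPM (416 to 451) in the anti-Gr-1 and 435 CPM (422 to 448) in the isotype control library, where CPM relates the UMIs of the gene to all UMIs of that type. Macrophage-like cells followed with 325 and 317 CPM and type 2 dendritic-like cells with 229 and 202 CPM. Classical monocyte-like cells had 156 CPM (101 to 231) from 25 UMIs in the anti-Gr-1 library and 314 CPM (285 to 346) in the isotype control library, a level whose interval overlaps that of macrophage-like cells. Neutrophil-like cells had 110 and 108 CPM, from 7 and 33 UMIs, and non-classical monocyte-like cells 33.5 and 75.2 CPM, from 6 and 49 UMIs. Type 1 dendritic-like cells had 73.4 and 79.3 CPM and Langerhans-like cells 40.7 and 40.2 CPM. Migratory dendritic-like cells were low, at 15.9 and 16.8 CPM.

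Clec4a1 was highest in macrophage-like cells, at 403 CPM (378 to 430) in the anti-Gr-1 and 351 CPM (333 to 369) in the isotype control library. Classical monocyte-like cells (287 and 324 CPM) and non-classical monocyte-like cells (296 and 322 CPM) came next, and these 3 types were not separated by their intervals in either library. Retnla Lpl Fn1 phagocytes had 221 and 208 CPM, type 2 dendritic-like cells 146 and 130 CPM, Langerhans-like cells 105 and 85.6 CPM, and type 1 dendritic-like cells 20.1 and 34.4 CPM. Clec4a3 had another leader, the non-classical monocyte-like cells, which patrol vessel walls, at 553 CPM (449 to 673) and 541 CPM (486 to 600). Classical monocyte-like cells had 237 and 422 CPM, macrophage-like cells 350 and 359 CPM, Retnla Lpl Fn1 phagocytes 314 and 306 CPM, and type 2 dendritic-like cells 158 and 147 CPM. Type 1 dendritic-like cells were near the floor for Clec4a3, at 2.53 and 9.98 CPM, although Clec4a2 was well detected in them. The DCIR genes thus differed in their order over types: non-classical monocyte-like cells stood first for Clec4a3 but low for Clec4a2.

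The activating receptor gene Clec4b1 was highest in Retnla Lpl Fn1 phagocytes, followed by type 2 dendritic-like cells. Retnla Lpl Fn1 phagocytes had 314 CPM (300 to 329) in the anti-Gr-1 and 354 CPM (342 to 366) in the isotype control library, and type 2 dendritic-like cells had 155 and 153 CPM. Macrophage-like cells had 84.2 and 85.7 CPM and type 1 dendritic-like cells 58.2 and 48.1 CPM. Classical monocyte-like cells had 25 CPM from 4 UMIs in the anti-Gr-1 and 80.8 CPM (66.5 to 97.3) from 111 UMIs in the isotype control library. The latter interval overlapped that of macrophage-like cells and lay above that of type 1 dendritic-like cells. Non-classical monocyte-like cells were lower, with 22.3 and 10.7 CPM from 4 and 7 UMIs.

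Clec4d and Clec4e, the paired cord factor receptors, had their highest levels in neutrophil-like and monocyte-like cells. Clec4d stood at 992 CPM (762 to 1269) in anti-Gr-1 and 1608 CPM (1469 to 1756) in isotype control neutrophil-like cells, then at 219 and 234 CPM in classical and 61.4 and 72.2 CPM in non-classical monocyte-like cells. Basophil-like cells had 35.8 and 96.4 CPM from 7 and 16 UMIs. Every other type lay far below, with 8.79 and 15.5 CPM in Retnla Lpl Fn1 phagocytes, 7.05 and 9.47 CPM in macrophage-like cells and 3.02 and 3.64 CPM in type 2 dendritic-like cells. Clec4e was spread more widely. It had 614 CPM (437 to 839) and 848 CPM (748 to 958) in neutrophil-like, 818 CPM (684 to 971) and 597 CPM (557 to 639) in classical monocyte-like, and 363 and 445 CPM in non-classical monocyte-like cells. Neutrophil-like cells thus led the classical kind in the isotype control library, while their intervals overlapped in the anti-Gr-1 library. Basophil-like cells had 296 CPM from 58 UMIs and 145 CPM from 24 UMIs, and Retnla Lpl Fn1 phagocytes had 103 and 99.6 CPM with overlapping intervals. Macrophage-like cells had 11.2 and 37.7 CPM, type 2 dendritic-like cells 13.7 and 15.6 CPM, and type 1 dendritic-like cells 1.87 and 4.02 CPM.

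Clec4n, the fungal mannan receptor Dectin-2, was at moderate levels in monocytes, macrophages and Langerhans cells. It had 137 CPM (86.1 to 208) and 156 CPM (136 to 178) in classical monocyte-like cells, 124 CPM (110 to 139) and 110 CPM (99.9 to 120) in macrophage-like cells, and 109 CPM (87.1 to 134) and 62.3 CPM (50.4 to 76.0) in Langerhans-like cells. Non-classical monocyte-like cells had 140 CPM from 25 UMIs in the anti-Gr-1 and 43.0 CPM from 28 UMIs in the isotype control library. Type 2 dendritic-like cells had 50.3 and 49.4 CPM and Retnla Lpl Fn1 phagocytes 22.1 and 20.1 CPM, so the phagocytes that led for Clec4a2 and Clec4b1 were low for Clec4n. In neutrophil-like cells Clec4n had 0 UMIs in the 8 anti-Gr-1 cells, which allows up to 58.1 CPM, and 97.8 CPM in the isotype control cells.

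**Figure D1:**
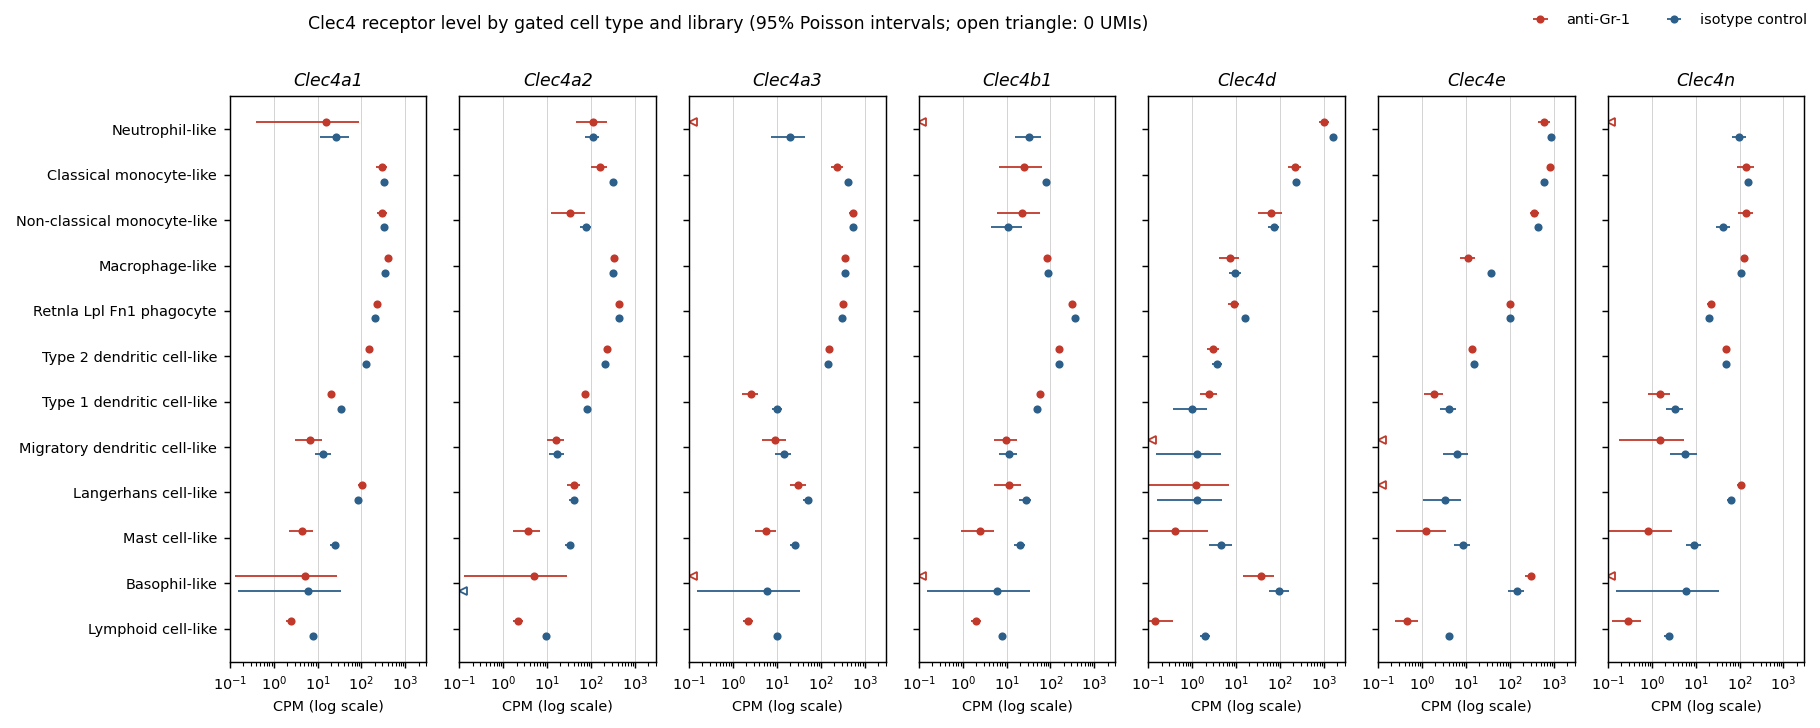
Level of each of the 7 Clec4 genes in CPM (log scale) by gated type, anti-Gr-1 above isotype control within each type; points are UMIs of the gene scaled to 1000000 UMIs of the type, lines are exact Poisson intervals and open triangles mark 0 UMIs. Clec4d peaks in neutrophil-like cells (992 and 1608 CPM), Clec4a3 in non-classical monocyte-like cells (553 and 541 CPM), and Clec4a2 and Clec4b1 in Retnla Lpl Fn1 phagocytes.

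Cells that should lack these receptors show the level that free RNA and left-over doublets can give. Lymphoid-like cells, with median depths of 6808 and 4921 UMIs, had between 0.143 (Clec4d) and 2.47 CPM (Clec4a1) in the anti-Gr-1 library and between 1.94 (Clec4d) and 10.2 CPM (Clec4a3) in the isotype control library. Mast-like cells, at median depths of 5752.5 and 2513 UMIs, had 0.406 to 5.68 CPM in the anti-Gr-1 library and up to 32.2 CPM in the isotype control library. All 7 genes were thus higher in both of these types in the isotype control library, and levels within this range are not read as expression. The levels of Clec4d in type 2 dendritic-like cells, of Clec4a3, Clec4d, Clec4e and Clec4n in type 1 dendritic-like cells, and of all 7 genes in migratory dendritic-like cells (0 to 15.9 and 1.24 to 16.8 CPM) are close to this range. Of these, Clec4a2 in anti-Gr-1 migratory dendritic-like cells (9.84 to 24.3 CPM) still lay above mast-like cells of the same library (1.67 to 6.93 CPM). Against mast-like cells of the isotype control library the intervals also overlapped for Clec4b1 (27.2 against 19.8 CPM) and Clec4a2 (40.2 against 32.2 CPM) in Langerhans-like cells. The same held for Clec4a1 in type 1 dendritic-like cells (34.4 against 24.4 CPM) and Clec4d in macrophage-like cells (9.47 against 4.60 CPM). It also held for Clec4b1 in non-classical monocyte-like cells (10.7 against 19.8 CPM).

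Shares of cells with at least 1 UMI were also taken with every cell thinned to 1000 UMIs. They did not separate every pair of types that CPM did: for Clec4a2 the thinned shares in the isotype control library were 29.4% in both classical monocyte-like cells and Retnla Lpl Fn1 phagocytes. Clec4d was found in 6 of 8 anti-Gr-1 neutrophil-like cells (75.0%, 34.9 to 96.8) and in 85 of 120 in the isotype control library (70.8%, 61.8 to 78.8), while 100% and 74.2% held it before thinning. In lymphoid-like cells the thinned shares were 0.0530% and 0.263%, and 0.106% and 0.678% before thinning. Clec4e was found in 38.5% and 43.3% of classical monocyte-like cells, 34.6% and 33.1% of non-classical monocyte-like cells and 8.54% and 6.95% of Retnla Lpl Fn1 phagocytes after thinning. Before thinning these shares were 84.6% and 77.8%, 80.8% and 67.2%, and 36.0% and 25.9%. In lymphoid-like cells Clec4e was found in none of 3773 thinned anti-Gr-1 cells, an upper bound of 0.0977%, and in 0.477% of isotype control cells (0.344% and 1.97% unthinned). Clec4a3 was found in 46.2% and 35.5% of thinned non-classical monocyte-like and 33.3% and 28.6% of thinned macrophage-like cells (88.5% and 84.8%, and 90.1% and 73.1%, unthinned). In lymphoid-like cells its shares were 0.265% and 0.970% thinned and 1.48% and 4.24% unthinned.

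Single cells often held RNA of several of these receptors. With cells thinned to 2000 UMIs, Retnla Lpl Fn1 phagocytes held on average 2.03 of the 7 genes per anti-Gr-1 cell and 2.0 per isotype control cell, and macrophage-like cells 1.71 and 1.81. Classical monocyte-like cells held 2.23 and 2.63, type 2 dendritic-like cells 1.16 and 1.11, and type 1 dendritic-like cells 0.296 and 0.337. The pair Clec4d and Clec4e was found together in 4 of 8 anti-Gr-1 and 44 of 78 isotype control neutrophil-like cells. Clec4d alone was found in 2 and 24 of these cells and Clec4e alone in 0 and 6. In classical monocyte-like cells the balance was the other way in the isotype control library, where 37 of 168 cells held both, 17 Clec4d alone and 61 Clec4e alone. Among the 13 anti-Gr-1 cells of that kind, 4 held both, 3 Clec4d alone and 1 Clec4e alone. In non-classical monocyte-like cells Clec4e alone was the most frequent state among cells with either gene, in 7 of 25 and 50 of 112 cells.

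Most UMIs of Clec4a1, Clec4a2, Clec4a3, Clec4b1 and Clec4n came from dendritic and phagocyte populations, and among the 7 genes the neutrophil-like cells were the largest gated source only of Clec4d. Type 2 dendritic-like cells gave 32.8% and 23.1% of all Clec4a1 UMIs, 34.1% and 27.1% of Clec4b1 UMIs and 40.9% and 30.2% of Clec4n UMIs in the anti-Gr-1 and isotype control libraries. Retnla Lpl Fn1 phagocytes gave 29.9% (28.7 to 31.1) and 33.5% (32.6 to 34.4) of Clec4b1 and 27.5% and 28.5% of Clec4a2 UMIs. Neutrophil-like cells, 0.106% of kept anti-Gr-1 and 0.801% of kept isotype control cells, gave 21.1% (16.6 to 26.1) and 29.4% (27.2 to 31.6) of Clec4d UMIs. For Clec4e the largest gated source was the Retnla Lpl Fn1 phagocytes, with 40.1% (37.5 to 42.6) and 19.9% (18.8 to 21.1), ahead of classical monocyte-like cells with 9.14% and 17.0%. Cells outside every gate gave 22.7% and 36.2% of Clec4e UMIs. Of those ungated UMIs, 32.6% and 60.8% lay in clusters in which classical monocyte was the most frequent gate.

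**Figure D2:**
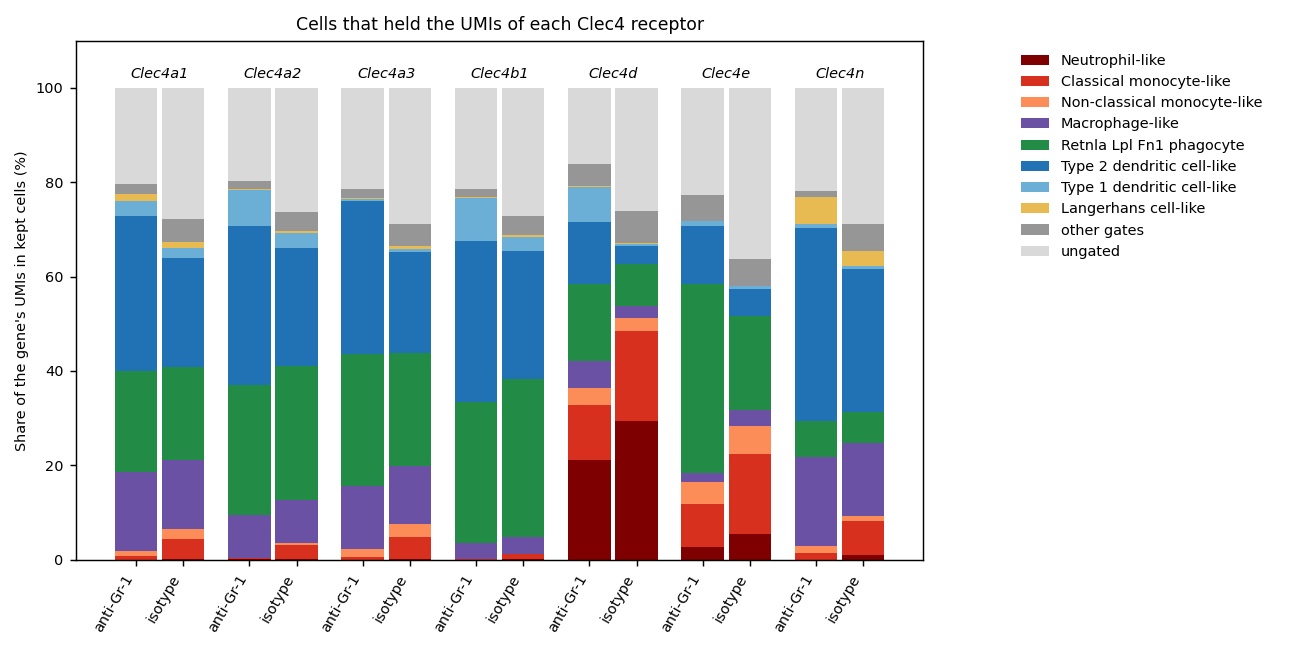
Share of each gene's UMIs (%) given by each gated type in the anti-Gr-1 and isotype control libraries; the segments of a bar add to all UMIs of that gene in kept cells. The neutrophil-like segment (dark red) is 21.1% and 29.4% for Clec4d and 2.72% and 5.39% for Clec4e, and the Retnla Lpl Fn1 segment of Clec4e is 40.1% in the anti-Gr-1 and 19.9% in the isotype control library.

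Over all kept cells, all 7 receptor RNAs stood lower after anti-Gr-1, and the widest gaps among them were those of Clec4d and Clec4e. Clec4d stood at 4.00 CPM in the anti-Gr-1 and 16.3 CPM in the isotype control library (ratio 0.246, 0.217 to 0.278), and Clec4e at 19.2 and 46.8 CPM (ratio 0.409, 0.386 to 0.434). Clec4a3 had 83.9 and 120 CPM (ratio 0.70), Clec4n 21.3 and 28.7 CPM (0.740), Clec4a1 76.9 and 98.8 CPM (0.779), Clec4b1 78.4 and 98.9 CPM (0.792) and Clec4a2 117 and 143 CPM (0.822). On the scale of log2(CPM + 5), Clec4d differed by -1.24 and Clec4e by -1.10, and the median of the 7 genes was -0.36, where the median of all genes with at least 20 UMIs was -0.05. At least 2-fold lower on that scale were 2 of the 7 genes and 0.116% of 16310 genes. None of the 7 was at least 2-fold higher, and 0.00613% of all genes were. All counts of genes past 2-fold are on that scale, which understates the change of genes at a few CPM.

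The neutrophil-like and monocyte-like cells, which had the highest levels of Clec4d and Clec4e, were themselves scarce after anti-Gr-1. Ly6c2, the Ly6C gene of classical monocytes, had a ratio of 0.264 (0.244 to 0.286) over all kept cells, and S100a8, an abundant neutrophil gene, stood at 133 and 138 CPM (ratio 0.963). Leaving out the gated neutrophil-like and monocyte-like cells moved the ratio of Clec4d to 0.315 (0.268 to 0.369) and that of Clec4e to 0.470 (0.440 to 0.502). A wider removal took out the 4 clusters in which a neutrophil or monocyte gate was the most frequent, which held 118 anti-Gr-1 (1.56%) and 1334 isotype control cells (8.09%). That gate took 77.3% and 84.5% of the gated cells in a cluster of 292 and one of 270 cells, but only 41.0% and 30.6% in one of 768 and one of 122, so other types were removed as well. Clec4d then had 1.99 and 3.65 CPM (ratio 0.544, 0.446 to 0.662) and Clec4e 14.2 and 17.8 CPM (ratio 0.80, 0.740 to 0.865). The other genes had ratios between 0.813 (Clec4a3) and 0.917 (Clec4n) in the cells that remained.

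**Figure D3:**
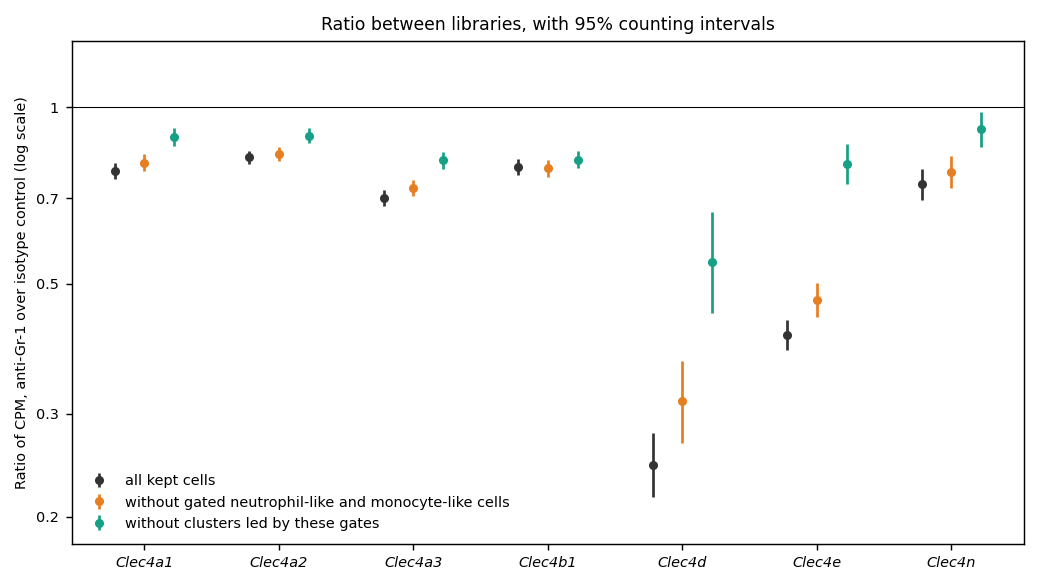
Ratio of CPM, anti-Gr-1 over isotype control (log scale), of each Clec4 gene in all kept cells, without gated neutrophil-like and monocyte-like cells, and without the 4 clusters in which a neutrophil or monocyte gate was the most frequent; lines are exact conditional intervals. Clec4d moves to 0.544 and Clec4e to 0.80 once those clusters are left out, while the other 5 genes stay between 0.70 and 0.917 throughout.

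Within the large phagocyte and dendritic types, levels of most receptors differed little between the libraries. In type 2 dendritic-like cells the 7 ratios ran from 0.828 (Clec4d) to 1.13 (Clec4a2), with a median log2 difference of 0.02 where all genes had -0.06. None of the 7 was past 2-fold there, while 0.0586% of 11949 genes were at least 2-fold lower and 0% at least 2-fold higher. In Retnla Lpl Fn1 phagocytes the median was 0.04 where all genes had -0.08, and none of the 7 was past 2-fold, while 0.470% of 11056 genes were lower and 0.0362% higher by that much. Clec4e had a ratio of 1.03 (0.931 to 1.15) in these phagocytes and Clec4b1 one of 0.887 (0.837 to 0.940). Clec4d was the lowest, with 49 and 150 UMIs and a ratio of 0.566 (0.401 to 0.786). S100a8 was also lower in the same cells (1.61 and 10.6 CPM, ratio 0.153) and Ly6c2 too (2.51 and 9.02 CPM, ratio 0.279), and their part in the Clec4d difference was not tested.

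Clec4e was the exception among the receptors of macrophage-like cells. It had 27 UMIs in the anti-Gr-1 and 159 UMIs in the isotype control cells, or 11.2 and 37.7 CPM (ratio 0.297, 0.190 to 0.449). Clec4a1 had a ratio of 1.15 (1.06 to 1.25), Clec4n 1.13 (0.974 to 1.31), Clec4a2 1.03, Clec4b1 0.981 and Clec4a3 0.976, and Clec4d, with 17 and 40 UMIs, 0.744 (0.395 to 1.34). At least 2-fold lower were 1 of the 7 genes and 1.03% of 10274 genes, at least 2-fold higher none of the 7 and 0.0973% of all, and the median of the 7 was -0.03 where all genes had -0.06. Genes of other cells were lower in these macrophage-like cells as well: Plac8, a monocyte gene, had 2.49 and 29.6 CPM, Ly6c2 0 and 10.9 CPM, Cd209a, a type 2 dendritic gene, 30.3 and 77.2 CPM, and Cd3e of T cells 20.3 and 75.6 CPM. Of the 9 classical monocyte markers, 5 were detected in macrophage-like cells after anti-Gr-1, at a summed level of 296 CPM and with Ly6c2, Chil3 and Vcan among those at 0, and 9 in the isotype control cells, with a summed level of 483 CPM. Of the 11 neutrophil markers, 8 and 6 were detected, with summed levels of 39.4 and 64.9 CPM and with Ly6g and Camp at 0 in both. Their part in the Clec4e difference was not tested. With cells thinned to 2000 UMIs and parted by the resident macrophage genes Lyve1 and Folr2, Clec4e was found mainly in isotype control cells that lacked both, from 34 UMIs (34.6 to 69.9 CPM) in 340 cells. In the 127 such anti-Gr-1 cells it was at 3.94 CPM from 1 UMI, and in cells with Lyve1 or Folr2 it was at 0 CPM in 120 anti-Gr-1 and 1.83 CPM in 273 isotype control cells. Clec4n had 126 and 128 CPM in cells lacking both genes and 104 and 106 CPM in cells with either, with overlapping intervals. Isotype control Clec4a2 was higher in cells lacking both (390 CPM, 344 to 440) than in cells with either (256 CPM, 216 to 303). In the anti-Gr-1 library it had 378 and 283 CPM with overlapping intervals. Isotype control Clec4d had 13 and 2 UMIs in these cells (19.1 and 3.66 CPM), and anti-Gr-1 Clec4d had 0 in both. For Clec4a1, Clec4a3 and Clec4b1 the intervals overlapped in both libraries.

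**Figure D4:**
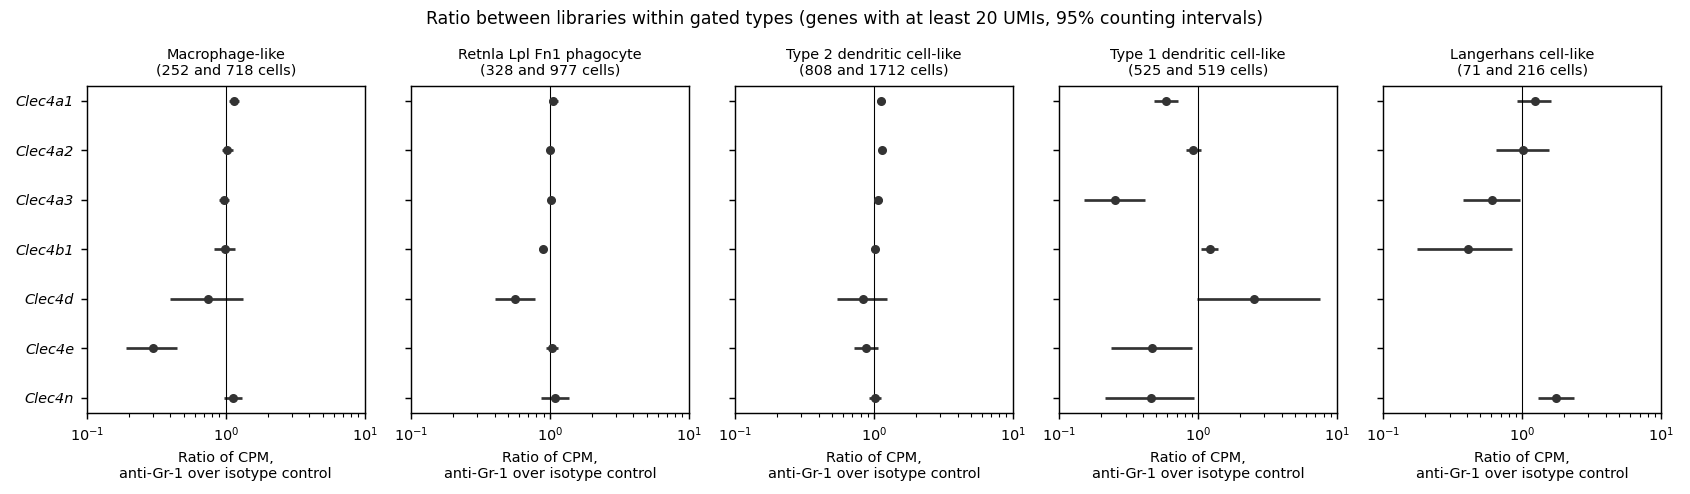
Ratio of CPM, anti-Gr-1 over isotype control (log scale), of each Clec4 gene with at least 20 UMIs within 5 gated types; points are ratios, lines exact conditional intervals, and cell numbers are given as anti-Gr-1 and isotype control. Points of type 2 dendritic-like cells and Retnla Lpl Fn1 phagocytes lie near 1 except Clec4d in the phagocytes (0.566), and Clec4e of macrophage-like cells stands at 0.297.

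In type 1 dendritic-like cells, which take up dead cells and present their antigens, the receptors with clear levels were Clec4a2 (ratio 0.925, 0.822 to 1.04) and Clec4b1 (1.21, 1.05 to 1.40). Clec4a1 was lower after anti-Gr-1 (20.1 and 34.4 CPM, ratio 0.585, 0.477 to 0.716), while Clec4a3 (23 and 62 UMIs, ratio 0.254, 0.150 to 0.415) was at the level of lymphoid-like cells in each library (2.22 and 10.2 CPM). With that lymphoid level subtracted, the log2 difference of Clec4a3 turned to 0.087, against -0.99 without the subtraction. None of the 7 passed 2-fold on the log2 scale, on which 0.584% of 10617 genes were that much lower and 0.0942% that much higher. The macrophage marker list of 11 genes summed to 46.9 CPM in the anti-Gr-1 and 114 CPM in the isotype control type 1 dendritic-like cells, with all 11 detected in both, and its part in the Clec4a1 and Clec4a3 differences was not tested. Clec4d had 22 UMIs in the anti-Gr-1 cells, 15 of them in 1 cell, and 6 in the isotype control cells. S100a8 was higher in the anti-Gr-1 type 1 dendritic-like cells (67.0 and 8.37 CPM).

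Langerhans-like cells, the dendritic cells of the epidermis, had more Clec4n in the anti-Gr-1 library, from 88 and 96 UMIs (ratio 1.74, 1.29 to 2.36). By sex, Clec4n had 106 and 67.7 CPM in 43 and 54 male cells. In 14 and 103 female cells it had 70.8 and 66.9 CPM, from 11 and 46 UMIs. Over all Langerhans-like cells Clec4a1 had a ratio of 1.23 (0.922 to 1.62) and Clec4a2 one of 1.0, and Clec4b1, with 9 and 42 UMIs, one of 0.408 (0.175 to 0.850). Its log2 difference of -1.0 turned to 0.062 in male cells, from 8 and 7 UMIs, and lay between -1.39 and 0.062 over 11 alternatives. At least 2-fold lower were 1 of the 5 receptor genes with 20 UMIs or more and 3.90% of 7999 genes, and at least 2-fold higher were none of the 5 and 0.413% of all. The markers of type 2 dendritic cells, 7 of 7 detected in both libraries, summed to 312 and 711 CPM in these cells, and their part in the Clec4b1 difference was not tested. In migratory dendritic-like cells none of 4 genes with 20 UMIs was past 2-fold, while 2.22% of 7561 genes were lower and 0.331% higher by that much. In mast-like cells all 6 such genes were at least 2-fold lower, as were 3.83% of 9894 genes (0.0809% were higher by that much). In lymphoid-like cells 1 of 7 was, Clec4a3, as were 0.388% of 13669 genes (0.0146% higher). Summed macrophage markers in mast-like cells were 57.2 and 308 CPM, with 10 and 11 of 11 detected.

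Neutrophil-like and monocyte-like cells were too few in the anti-Gr-1 library for a firm value, and the remaining cells still carried Clec4d and Clec4e. The ratio of Clec4d was 0.617 (0.467 to 0.803) in neutrophil-like, 0.936 (0.640 to 1.33) in classical and 0.851 (0.398 to 1.66) in non-classical monocyte-like cells. That of Clec4e was 0.724 (0.503 to 1.02) in neutrophil-like, 1.37 (1.13 to 1.65) in classical and 0.815 (0.613 to 1.07) in non-classical monocyte-like cells. Clec4n had a ratio of 3.25 (1.82 to 5.78) in the non-classical kind.

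The genes that work with these receptors were compared as lists. Of 16 adaptor and proximal signalling genes, none was past 2-fold over all kept cells, where Malt1, the protease of the Card9 complex, had 292 and 401 CPM (ratio 0.727) and Syk 57.9 and 77.8 CPM (ratio 0.745). Fcer1g, the shared signalling chain, stood at 1615 and 1436 CPM in macrophage-like cells, 1126 and 1170 CPM in Retnla Lpl Fn1 phagocytes, 1233 and 1251 CPM in type 2 dendritic-like cells and 238 and 257 CPM in type 1 dendritic-like cells. In Langerhans-like cells it had 1004 and 994 CPM, and its ratios in these 5 types were between 0.926 and 1.12. In macrophage-like cells 1 of the 16 was at least 2-fold lower, Malt1 (34.4 and 90.5 CPM), as were 1.03% of all genes. In Langerhans-like cells 1 of the 16 was, Blnk, an adaptor (2.47 and 14.3 CPM), as were 3.90% of all genes. None of the 8 phosphatases and brakes of the inhibitory receptors was past 2-fold in macrophage-like cells, Retnla Lpl Fn1 phagocytes or either conventional dendritic-like type, and Ptpn6, the phosphatase SHP-1, had 114 and 141 CPM in macrophage-like cells.

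Response genes of Syk and Card9 signalling were past 2-fold in some types and not in others. In Retnla Lpl Fn1 phagocytes and type 2 dendritic-like cells none of 15 and 16 measured genes was past 2-fold, with medians of 0.00 and -0.04. In macrophage-like cells 2 of 15 were at least 2-fold lower, Ptgs2, a prostaglandin synthase (18.2 and 66.6 CPM), and Csf2, a growth factor (0 and 9.47 CPM), where 1.03% of all genes were. In migratory dendritic-like cells 6 of 11 were, among them the chemokine genes Ccl4 (6.81 and 73.9 CPM) and Cxcl2 (18.2 and 115 CPM), where 2.22% of all genes were. In those cells all 7 receptors were near the level of free RNA in the isotype control library. In the anti-Gr-1 library Clec4a2 stood above that level, at 15.9 CPM (9.84 to 24.3) against 3.65 CPM (1.67 to 6.93) in mast-like cells. In Langerhans-like cells 4 of 10 were at least 2-fold lower (3.90% of all genes), among them Ccl2 (3.70 and 101.8 CPM) and Il1b (154 and 512 CPM), and 1 was at least 2-fold higher (0.413% of all genes), Cxcl2 (1088 and 419 CPM). In mast-like cells 5 of 13 were lower by that much (3.83% of all genes), in lymphoid-like cells 4 of 16 (0.388%), and in type 1 dendritic-like cells none of 15 (0.584%). Of 13 other C-type lectins of the same gene complexes with counts in the tables, 12 had 20 UMIs over all kept cells and none was past 2-fold on the log2(CPM + 5) scale. The neighbour Clec4b2, at 2.21 and 0.882 CPM, had a plain ratio of CPM of 2.50 (1.92 to 3.27) and a log2 difference of 0.29 on that scale. Of 15 other pattern receptors none was past 2-fold on that scale over all kept cells either, with Tlr2 at 27.4 and 51.7 CPM and Msr1, a scavenger receptor, at 8.61 and 18.6 CPM.

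Across 20 groups, each a type in 1 library, over 12 types, the 7 receptors fell into patterns that can be described by the genes most like them among 5570 genes. Clec4d and Clec4e had a Pearson correlation of 0.91 with each other, Clec4a1 and Clec4a3 one of 0.95 and Clec4a2 and Clec4b1 one of 0.93, while Clec4b1 and Clec4d had 0.18. Nearest to Clec4d were Chil3 (0.98), F5 (0.95) and Csf3r (0.95), and nearest to Clec4e were Sirpb1c (0.98), Sirpb1b (0.98) and Ifitm6 (0.97). Nearest to Clec4a3 were Lrp1 (0.98), Ticam2 (0.95) and Clec4a1 (0.95), and nearest to Clec4a1 Adgre1 (0.96), Clec4a3 and Cd302 (0.94). Clec4a2 was most like Tgfbi (0.93), App (0.93) and Clec4b1, Clec4b1 most like Clec4a2, Eps8 (0.90) and Tep1 (0.89), and Clec4n most like Hacd4 (0.92), Cebpd (0.92) and Csf1r (0.92). Each group needed at least 50 cells, so neutrophil-like and both monocyte-like types entered from the isotype control library only. The groups highest in Clec4d and Clec4e thus came from 1 library, while the other types, B cells apart, entered from both. Types of 1 library share their depth and free RNA, and Chil3, Csf3r and Adgre1 are among the gating markers, so these values are a description.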

How the data were processed

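The authors deposited raw UMI counts per gene and cell barcode, an output of Cell Ranger 4.0.0 (per the file headers) on mouse genome build mm10 (so named in the submitters' processing notes, while mms10 stands in the labels). Their chemistry is 3′ v2 per the labels' protocols, and antibody tags were not used. The count tables hold 32285 genes and barcodes with at least 500 UMIs. Groups follow the treatment label of each library.

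From these counts, barcodes with at least 500 UMIs, 200 genes and under 10% mitochondrial UMIs were taken (8047 anti-Gr-1 and 19542 isotype control). In each library, scrublet (within scanpy 1.11.5) gave every barcode a doublet score. Its automatic threshold removed 468 anti-Gr-1 barcodes (5.82%). In the isotype control library it would have taken 32.5%, over the limit of 25%, so the 3055 highest scores (15.6%) were removed, at 0.8% per 1000 barcodes. A cell took a type when its mean scaled score over that marker list was at least 0.25, led the next of 18 lists by 0.10, and at least 3 markers were found. The markers Klk1 and Epx were hardly detected and left out. Leiden clusters (resolution 2.0, 2000 variable genes, 30 components, 15 neighbours) were made without any gene named Clec. UMIs were summed per type and library and scaled to CPM. Log2 ratios used a pseudocount of 5 CPM and genes with at least 20 UMIs. Types with under 50 cells in a library are given without a log2 median. Levels have exact Poisson intervals, shares exact Clopper-Pearson intervals and ratios exact conditional intervals. Positions of genes are those of GENCODE M21 (mm10), and promoters are from RefSeq (GRCm38.p6).

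Named genes are the 7 receptors, up to 4 members per list and type furthest from 0, and the 3 genes most like each receptor. Fcer1g, Cxcl2 in Langerhans-like cells and the marker genes beside a result were named outside that rule, after their values were seen. Ptpn6, Tlr2 and Clec4b2 lay within the rule but were also named after their values were seen. Members and lists were chosen with earlier results of these data known. Python 3.11.15, numpy 2.4.6, scipy 1.17.1, pandas 2.3.3, anndata 0.12.19, igraph 0.11.9 and matplotlib 3.10.9 were used. The ratio and its interval were tested on simulated data.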

Additional observations from a re-analysis of the deposited data

How the results depend on the processing

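All values here are log2 differences, anti-Gr-1 over isotype control. No paired analysis was possible because each group has 1 library and the labels give no replicate numbers; for the same reason no library could be left out. Over all kept cells, the direction of the 7 receptors and of their median was negative in every one of 10 alternatives. The median of -0.36 was -0.66 with every cell counted the same, -0.69 with cells thinned to 2000 UMIs, -0.27 with median ratio scaling, -0.29 in male cells and -0.24 without the 4 clusters in which a neutrophil or monocyte gate was the most frequent. For Clec4d (-1.24) the values were -1.14 with doublet calls ignored, -1.67 with every cell counted the same, -1.56 thinned, -1.79 with a pseudocount of 1 CPM, -1.07 in female cells and -1.0 in male cells. Without gated neutrophil-like and monocyte-like cells Clec4d had -0.79, and without those clusters -0.31. For Clec4e (-1.10) they were -1.39 with every cell counted the same, -1.56 thinned, -1.01 with median ratio scaling, -1.25 with a pseudocount of 1 CPM, -1.17 in female cells and -0.96 in male cells. Without the gated cells Clec4e had -0.90, and without the clusters -0.24. These removals, and that of cells with lymphoid markers, were chosen after seeing the data. Within types, the median of the 7 moved to -0.20 in female macrophage-like cells (-0.03), and to -0.13 in Retnla Lpl Fn1 phagocytes without cells holding 3 or more lymphoid markers (0.04). In type 2 dendritic-like cells (0.02) it was -0.11 thinned, 0.18 with the lymphoid level subtracted, 0.17 in male cells and 0.17 with cluster gates. In type 1 dendritic-like cells (-0.36) it was -0.60 with every cell counted the same, -0.75 with a pseudocount of 1 CPM and 0.087, the value of Clec4a3, with the lymphoid level subtracted. Clec4b1 in Langerhans-like cells reversed to 0.062 in male cells (-1.0 in all), and the cause was not tested. Clec4e in macrophage-like cells kept its direction in 12 of 12 alternatives, between -2.26 and -0.92. Free RNA was not subtracted over all kept cells, and cluster gates left no classical monocyte type. The neutrophil-like and monocyte-like values rest on 8, 13 and 26 anti-Gr-1 cells.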
